A study of Rattus norvegicus with 6 samples.

Results

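The fibroblast growth factor (FGF) genes described here are 7 ligands, Fgf1, Fgf2, Fgf5, Fgf7, Fgf9, Fgf10 and Fgf18, and 3 receptors, Fgfr1, Fgfr2 and Fgfr3. They were taken by gene symbol from the tables of all 6 samples and were 10 of 29468 gene symbols. Their 38 named transcripts were summed by symbol in each sample. The question was which FGF signals and receptors were expressed by Schwann cell precursors (SCPs) and by repair Schwann cells (RSCs), and where the 2 cell preparations differed.

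All animals were LEWIS rats that the labels give as wild type, with no treatment for the SCPs and the nerve cut for the RSCs. The 3 SCP samples came from the sciatic nerves of both sides and the brachial plexus of embryos at embryonic day 14. The 3 RSC samples came from 10-week-old rats, from the part of the sciatic nerve distal to a transection made 1 week earlier. Both preparations were digested with enzymes, plated briefly on uncoated plastic, and the cells that had not attached were used for RNA, a step meant to remove fibroblasts and macrophages. How many animals went into each sample is not given in the sources used here, so the p-values measure only the spread between these samples, which may be partly technical. SCPs and RSCs differed in age, injury, site and digestion together, and these cannot be told apart.

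FGF ligands are secreted or released proteins that bind receptor tyrosine kinases on the cell surface, with heparan sulfate chains as a required partner for the paracrine members. The activated receptor phosphorylates the adaptor Frs2 and signals through Ras and the MAP kinases, through phospholipase C gamma and through PI3-kinase. Sprouty, Spred and dual-specificity phosphatase genes are induced by the pathway and dampen it, and the PEA3 group of ETS transcription factors is among its best known targets. In peripheral nerve, FGFs act as mitogens and survival factors for Schwann cells and their precursors, and in the embryo they pattern limb, muscle and skeleton.

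Of the ligands, Fgf5 was far higher in RSCs and Fgf9 was higher in SCPs, and these were the genes that passed the test. The promoters of these 2 genes are shown so that a reader can see the sequence around the start site of each. Both run 5′ to 3′ along the gene's own strand, from 250 bases before to 50 bases after the RefSeq start, on the GRCr8 assembly, which is not the rn6 assembly of the expression tables. The Fgf5 promoter lies at chr14:11650194-11650493 on the minus strand and the Fgf9 promoter at chr15:36327108-36327407 on the plus strand. Capitals mark the letters TATAAA.
Fgf5: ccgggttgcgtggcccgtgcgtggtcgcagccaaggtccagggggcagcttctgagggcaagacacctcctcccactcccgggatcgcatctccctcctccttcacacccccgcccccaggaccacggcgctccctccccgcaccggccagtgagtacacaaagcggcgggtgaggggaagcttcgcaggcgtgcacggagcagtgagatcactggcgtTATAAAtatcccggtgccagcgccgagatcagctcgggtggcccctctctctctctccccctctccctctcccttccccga
Fgf9: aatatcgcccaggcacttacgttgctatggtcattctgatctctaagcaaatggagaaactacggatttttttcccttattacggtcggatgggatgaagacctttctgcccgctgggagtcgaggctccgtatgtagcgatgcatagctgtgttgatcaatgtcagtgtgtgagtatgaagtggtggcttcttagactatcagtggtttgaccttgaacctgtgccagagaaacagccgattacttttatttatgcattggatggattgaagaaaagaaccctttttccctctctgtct
The Fgf5 promoter held TATAAA, the core of a TATA box, beginning 31 bases before the start, and 14.2% of the 33469 rat promoters in the RefSeq table held these letters on either strand. It was 67.3% G and C, against a median of 51.7% over all promoters. The Fgf9 promoter was 44.7% G and C and held none of the 4 motifs searched on both strands. These were TATAAA, the AP-1 site TGANTCA (in 7.33% of promoters), the E-box CACGTG (6.42%) and the CRE TGACGTCA (1.83%). Of the 9 genes with a promoter in the table, Fgf7 was the other one with a match, to TATAAA, 235 bases before its start. That match was on the strand opposite to the gene, unlike the one of Fgf5.

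Expression was measured as FPKM, a fragment count corrected for the listed transcript length and for the mapped total of the library. Levels of genes of different length can thus be set side by side only as far as the listed lengths hold. Samples were compared with limma on log2(FPKM + 1), and fold changes are RSC minus SCP on that scale, on which weakly expressed genes show too small a change. The test covered 13003 genes that averaged 1 FPKM or more across samples, and the threshold was the unadjusted p of 0.01 that the study used. Over all tested genes, 40.5% passed it, 18.1% higher in RSCs (2351 genes) and 22.4% higher in SCPs (2917 genes). Under median-of-ratios scaling the split was 2757 against 2207 genes. The median log2 fold change of all tested genes was -0.17 and became 0.0053 under that scaling, so small differences below are best read against this shift.

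The cell preparations were checked by marker genes. Sox10, the transcription factor of the Schwann cell lineage, was at 179, 175 and 181 FPKM in SCPs and at 149, 143 and 143 FPKM in RSCs. Genes of leukocytes were higher in RSCs, 9 of 9, with a summed level of 13.5 to 40.6 FPKM in SCPs and 2230 to 2676 FPKM in RSCs. Of 8 genes of fibroblasts and mesenchyme, 5 were higher in RSCs and Twist1 was higher in SCPs, with a summed level of 681 to 1041 FPKM in SCPs and 5367 to 8026 FPKM in RSCs. Of 5 tested skeletal muscle genes, Des was higher in RSCs and 4 were higher in SCPs, with a sum of 34.6 to 66.8 FPKM in SCPs and 23.3 to 28.0 FPKM in RSCs. Myod1, Myf5 and Pax7 were listed at 0 in every RSC sample. Of 4 cartilage genes, Col2a1 alone was tested. It was at 58.6, 85.9 and 102.9 FPKM in SCPs and at 0.423, 0.570 and 0.139 FPKM in RSCs. The list's sum was 58.7 to 107 FPKM in SCPs, nearly all of it Col2a1, and 0.289 to 0.598 FPKM in RSCs. Matn1 and named Col9a1 were listed at 0 in RSCs and also in SCP 1 and SCP 2. In SCP 3 they were at 1.82 and 1.85 FPKM. With unnamed transcripts Col9a1 was at 7.34, 6.95 and 4.64 FPKM in SCPs and at 12.0, 15.4 and 13.2 FPKM in RSCs. Of the other lists, 0 of 6 endothelial (3 at an unadjusted limma p under 0.05), 1 of 4 mural and 3 of 4 perineurial and epithelial genes passed. Those that passed were higher in RSCs. Of the tested genes, 2 of 4 neuronal and 3 of 3 erythroid genes passed, all higher in SCPs. The erythroid list had by far the largest sum in SCPs, 16657 to 74543 FPKM, against 0 to 1.43 FPKM in RSCs.

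Fgf1 and Fgf2 are ligands that lack a classical signal peptide. Fgf1 (chromosome 18, 32273788 to 32359831 on rn6) was at 0.0881, 0.0413 and 0.368 FPKM in SCPs and at 0.693, 0.909 and 1.33 FPKM in RSCs. All 3 RSC samples were above all 3 SCP samples, but the gene was under the mean of 1 FPKM and was not tested. Without that filter its log2 fold change was 0.76 ± 0.18 (SE, n = 3 per group, limma adjusted p = 0.0223), which passed the threshold of 0.01 on the unadjusted p. In that fit 3 of the 10 genes passed, as did 6195 of all 20494 genes in it. Fgf2 (chromosome 2, 124081072 to 124134133), a mitogen for Schwann cells in culture, was at 0.421, 0.196 and 0.222 FPKM in SCPs and at 0.254, 1.40 and 0.742 FPKM in RSCs. The groups overlapped, the gene was under the filter, and without the filter the difference was 0.45 ± 0.25 (limma adjusted p = 0.238).

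Fgf5 belongs to the subfamily of Fgf4 and Fgf6 and is known for ending the growth phase of the hair follicle. It lies on chromosome 14 from 12974921 to 12995818. It was at 2.99, 1.06 and 0.604 FPKM in SCPs and at 25.5, 28.4 and 34.0 FPKM in RSCs. The lowest RSC sample was thus well above the highest SCP sample. The log2 fold change was 3.67 ± 0.36 (SE, n = 3 per group, limma adjusted p = 0.000557, higher in 3 of 3 RSC samples). Across the 16 other settings it stayed between 3.39 and 4.92, with adjusted p from 3.9e-05 to 0.00635. Fgf5 was the gene of the 10 that also passed the 4-fold threshold, which 7.81% of all tested genes passed toward RSCs and 3.78% toward SCPs. Cufflinks gave the named Fgf5 transcripts the status LOWDATA in all 3 RSC samples and OK in all 3 SCP samples. In the same samples 9 of 9 leukocyte genes and 5 of 8 fibroblast and mesenchyme genes were higher, while Twist1 was lower and Pdgfra and Prrx1 did not pass. Their part in the Fgf5 difference was not tested. In whole preparations such as these, fewer cells of a type and less RNA per cell cannot be told apart.

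Fgf7 and Fgf10 are close relatives that signal from mesenchyme to the epithelial splice form of Fgfr2. Fgf7 (chromosome 3, 118315856 to 118368464) was at 2.43, 0.991 and 2.21 FPKM in SCPs and at 6.02, 3.33 and 1.13 FPKM in RSCs. The groups overlapped, and the log2 fold change was 0.52 ± 0.49 (limma adjusted p = 0.427). Fgf10 (chromosome 2, 51673480 to 51747533) was listed at 0 in SCP 1 and was at 3.201 and 6.49 FPKM in SCP 2 and SCP 3. It was listed at 0 in RSC 1 and RSC 2 and was at 0.903 FPKM in RSC 3. The difference of -1.35 ± 0.78 did not pass (limma adjusted p = 0.209), and without SCP 1 it was -2.18 and passed.

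Fgf9, which acts in mesenchyme, in the skeleton and in the nervous system, was seen in SCPs. It lies on chromosome 15 from 38341657 to 38386945. It was at 3.39, 3.21 and 2.31 FPKM in SCPs and was listed at 0 in all 3 RSC samples. On the log2(FPKM + 1) scale the difference was -1.98 ± 0.23 (SE, n = 3 per group, limma adjusted p = 0.00102, lower in 3 of 3 RSC samples). Its size depends on the pseudocount and reached -4.92 with a pseudocount of 0.1, and adjusted p ran from 0.000138 to 0.0113 over its 15 other settings. Of the 5 tested muscle genes, Myod1, Myog, Myf5 and Pax7 were higher in SCPs and Des in RSCs, and of the cartilage genes Col2a1 was higher in SCPs. The 3 tested erythroid genes were also higher in SCPs. The part of these cell types in the Fgf9 difference was not tested.

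Fgf18, a ligand of the Fgf8 subfamily with roles in cartilage and bone, showed the same uneven listing as Fgf10. It lies on chromosome 10 from 18047109 to 18082290. It was at 5.02 FPKM in SCP 1, listed at 0 in SCP 2 and at 7.24 FPKM in SCP 3. It was listed at 0 in RSC 1 and RSC 2 and was at 0.537 FPKM in RSC 3. The difference of -1.67 ± 0.82 did not pass (limma adjusted p = 0.148), and without SCP 2 it was -2.61 and passed.

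The 7 ligands summed to 14.4, 8.70 and 19.4 FPKM in SCPs and to 32.5, 34.0 and 38.6 FPKM in RSCs. In RSCs Fgf5 made up 78.6%, 83.4% and 88.0% of that sum. In SCPs no ligand held more than 37.2% of it, and the top ligand was Fgf18 in SCP 1 and SCP 3 and Fgf9 in SCP 2.

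**Figure D1:**
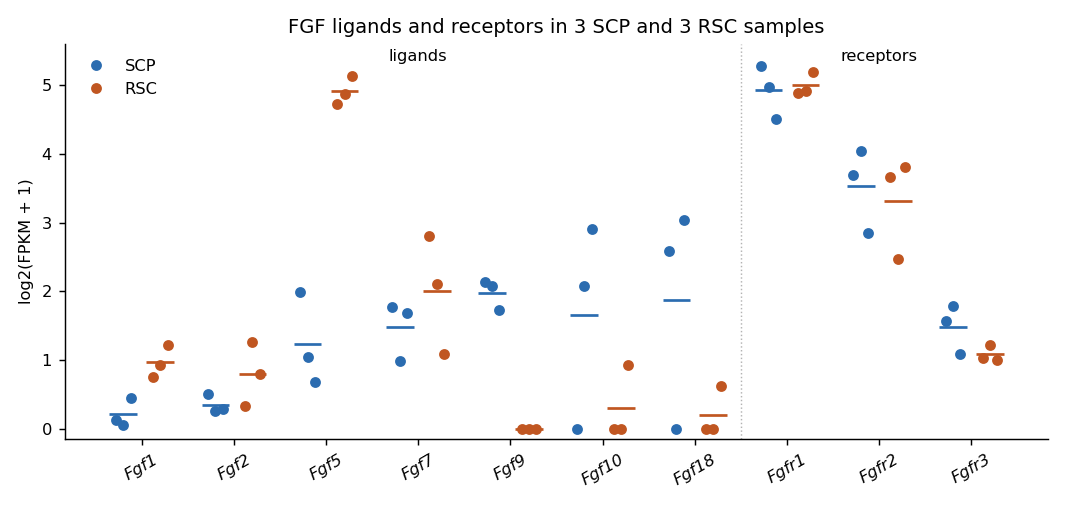
Level of each FGF ligand and receptor on the log2(FPKM + 1) axis, with a point for each of the 3 SCP (blue) and 3 RSC (orange) samples and a line at the group mean. Fgf5 sits at 0.604 to 2.99 FPKM in SCPs and 25.5 to 34.0 FPKM in RSCs, Fgf9 is listed at 0 in all RSC samples, and the points of each of the 3 receptors overlap between the groups.

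Fgfr1 is the receptor that Fgf5 and Fgf2 bind well and was the most abundant of the 10 genes by FPKM in SCPs. It lies on chromosome 16 from 71265390 to 71319046. It was at 38.0, 30.6 and 21.7 FPKM in SCPs and at 28.5, 29.1 and 35.7 FPKM in RSCs. The groups overlapped, and the log2 fold change was 0.07 ± 0.22 (limma adjusted p = 0.810). Its sign turned without SCP 3 (-0.14) and without RSC 3 (-0.03).

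Fgfr2 is the receptor of Fgf7 and Fgf10 in its epithelial form and of Fgf9 and Fgf18 in its mesenchymal form. It lies on chromosome 1 from 200590951 to 200696929. It was at 12.0, 15.5 and 6.17 FPKM in SCPs and at 11.6, 4.52 and 12.99 FPKM in RSCs. SCP 3 and RSC 2 were the low samples, and the difference was -0.22 ± 0.47 (limma adjusted p = 0.733). Without SCP 2 it was 0.04 and without RSC 2 it was 0.20.

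Fgfr3, a receptor for Fgf9 and Fgf18 that restrains growth of cartilage, was low in both groups. It lies on chromosome 14 from 82272319 to 82287744. It was at 1.96, 2.44 and 1.13 FPKM in SCPs and at 1.04, 1.34 and 0.994 FPKM in RSCs. The log2 fold change was -0.40 ± 0.26 (limma adjusted p = 0.268), and the groups overlapped. A receptor that missed the threshold was not shown to be equal between SCPs and RSCs.

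Among the receptors, Fgfr1 held 73.1%, 63.0% and 74.9% of the summed FPKM in SCPs and 69.2%, 83.2% and 71.9% in RSCs. Ranked by mean FPKM in SCPs, Fgfr1 (30.1 ± 8.13, SD, n = 3) was above Fgfr2 (11.2) without overlap, and Fgf18, Fgf10, Fgf9, Fgf7, Fgfr3 and Fgf5 followed, each overlapping its neighbour. Fgf2 and Fgf1 came last, both under 0.5 FPKM in every SCP sample. In RSCs, Fgfr1 (31.1 ± 4.03) and Fgf5 (29.3 ± 4.29) overlapped and stood above Fgfr2 (9.71 FPKM), followed by Fgf7 and Fgfr3. This order is that of named transcripts and rests on their listed lengths. Unnamed transcripts were longer than the named one for Fgf10 (2341 against 648 bases) and Fgf18 (1301 against 577 bases). For Fgf9 they were shorter (910 and 770 against 1061 bases). With unnamed transcripts added, Fgf5 in RSCs (62.9, 67.2 and 83.6 FPKM) was above Fgfr1 (43.4, 49.6 and 49.2 FPKM) without overlap.

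Of the 10 genes, 8 were tested and 2 passed, 25% against 40.5% of all tested genes. The same 2 had a limma adjusted p under 0.01, as did 31.6% of all tested genes. The groups did not overlap for Fgf5 and Fgf9 among the tested genes, and they did not overlap for 58.6% of all tested genes. Their median log2 fold change was -0.31, against -0.17 for all tested genes.

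Part of the FGF signal was in transcripts that Cufflinks assembled in each sample without a gene name, and these were not in the sums above. Such transcripts held 26.1% to 31.9% of all FPKM in SCPs and 18.6% to 23.4% in RSCs. Where they overlapped an FGF gene of the same Cufflinks locus, their FPKM was added to the gene in a second fit over 14019 genes. In that fit 57.4% of all genes passed, 34.2% higher in SCPs and 23.2% higher in RSCs.

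With the unnamed transcripts, 4 of 8 tested FGF genes passed, Fgf5 higher in RSCs and Fgf9, Fgf10 and Fgf18 higher in SCPs. For Fgf5, the unnamed transcripts held 59.4%, 57.8% and 59.4% of the FPKM in RSCs and none in SCPs. They were 1810 to 2818 bases long, against 801 bases for the longer named transcript. With them Fgf5 was at 62.9, 67.2 and 83.6 FPKM in RSCs, and the log2 fold change was 4.92 ± 0.34. For Fgf9, SCP 2 rose to 6.76 FPKM and SCP 3 to 5.82 FPKM, RSCs stayed at 0, and the difference was -2.62 ± 0.24. Fgf1 rose to 1.73, 1.45 and 2.21 FPKM in RSCs, kept its values in SCPs, and was again under the filter and not tested.

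The zeros of Fgf10 and Fgf18 in SCPs were at places where an unnamed transcript was listed. In SCP 1, where named Fgf10 was listed at 0, an unnamed transcript over the gene held 2.49 FPKM. With it, all 3 SCP samples were above all 3 RSC samples, and the difference was -1.95 ± 0.38 (limma adjusted p = 0.00408, the lowest of 15 settings that ran up to 0.459). In SCP 2, where named Fgf18 was listed at 0, an unnamed transcript held 3.35 FPKM. With it the Fgf18 groups were also apart, and the difference was -2.38 ± 0.30 (limma adjusted p = 0.00055, the lowest of 15 settings that ran up to 0.336). The groups did not overlap for 72.4% of all genes in this fit. Myod1, Myog, Myf5, Pax7 and Col2a1 were higher in SCPs, as were the 3 tested erythroid genes. Des and, with unnamed transcripts, Col9a1 were at higher values in RSCs. The part of these cell types in the Fgf10 and Fgf18 differences was not tested.

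**Figure D2:**
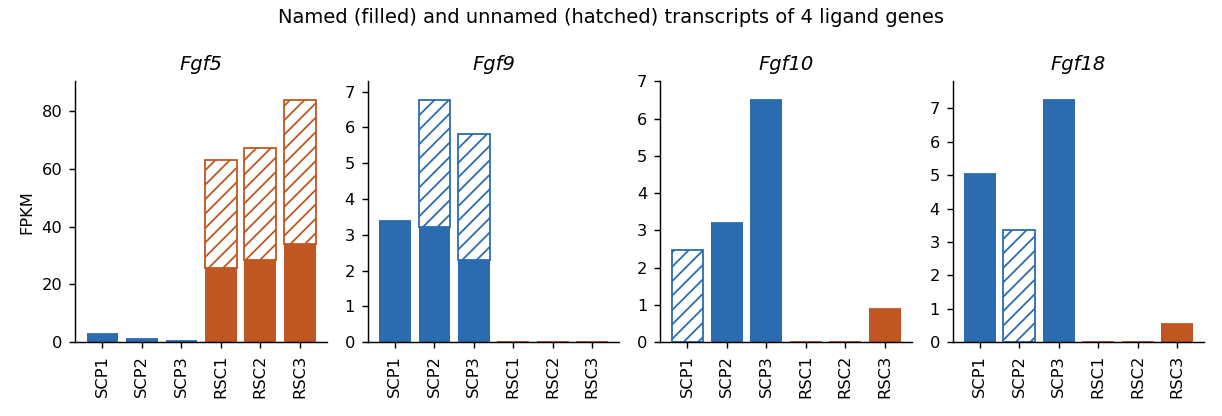
FPKM of 4 ligand genes in each sample, with named transcripts filled and unnamed transcripts of the same locus hatched, SCPs in blue and RSCs in orange. In RSCs 57.8% to 59.4% of the Fgf5 signal is hatched, and a hatched bar stands where named Fgf10 (SCP 1) and named Fgf18 (SCP 2) are listed at 0.

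The receptors stayed without a called difference when unnamed transcripts were added. Fgfr1 was then at 61.3, 51.9 and 39.5 FPKM in SCPs and at 43.4, 49.6 and 49.2 FPKM in RSCs, a difference of -0.08 ± 0.16 (limma adjusted p = 0.686, 0.305 to 0.942 over 16 alternative settings). Fgfr2 was at 12.0, 15.5 and 11.4 FPKM in SCPs and at 11.6, 12.7 and 12.99 FPKM in RSCs, so its low values in SCP 3 and RSC 2 rose to the level of the other samples. The Fgfr2 difference was -0.04 ± 0.14 (limma adjusted p = 0.797, 0.378 to 0.983 over 16 alternative settings). Fgfr3 was at 3.13, 3.77 and 1.13 FPKM in SCPs, with its RSC values as before, and its difference was -0.71 ± 0.32 (limma adjusted p = 0.0883, 0.0859 to 0.494 over 15 alternative settings).

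Different transcripts made up the receptor values in different samples. Of 6 named Fgfr1 transcripts, 5 were above 0 in some sample and 0 were above 0 in all 6. The 2469-base transcript was at 24.7 and 15.3 FPKM in SCP 1 and SCP 2 and listed at 0 in SCP 3 and in RSCs. The 3373-base transcript was at 18.9, 20.8 and 18.1 FPKM in RSCs, at 5.73 FPKM in SCP 3 and listed at 0 in SCP 1 and SCP 2. These transcripts share most of their sequence, and how Cufflinks divided reads among them can move a value from one to another. Of 11 named Fgfr2 transcripts, 6 were above 0 in some sample and 0 in all 6. Of 7 named Fgfr3 transcripts, 4 were above 0 in some sample. The epithelial and mesenchymal splice forms of the receptors, which set which ligands they bind, were not told apart here.

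**Figure D3:**
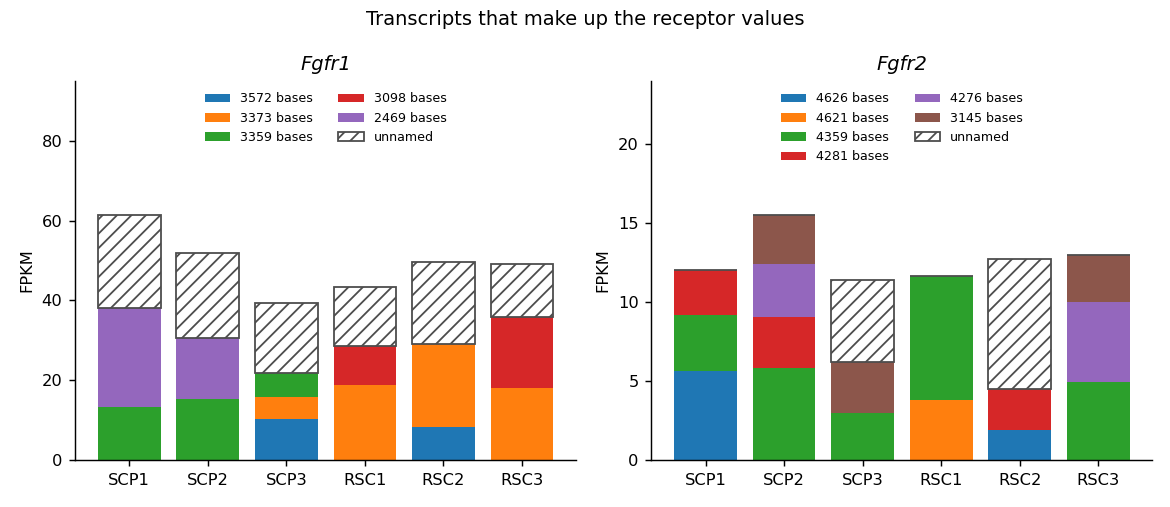
FPKM of Fgfr1 and Fgfr2 in each of the 6 samples, stacked by named transcript (coloured, labelled by length in bases) with unnamed transcripts hatched. The 2469-base Fgfr1 transcript is listed in SCP 1 and SCP 2 only, and the summed Fgfr2 bars lie between 11.4 and 15.5 FPKM.

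Around the members, 9 lists of FGF pathway genes were compared in the same way, and 27 of 67 tested genes in them passed (40.3%, against 40.5% of all tested genes), 12 higher in RSCs and 15 higher in SCPs. Under median-of-ratios scaling the split was 15 against 11. The other 11 secreted ligands were low or listed at 0. Of these, 4 were listed at 0 in every sample, 1 was tested and 0 passed. That ligand was Fgf8, chosen here after its values were seen, at 1.23, 1.18 and 3.94 FPKM in SCPs and 2.23, 2.76 and 2.44 FPKM in RSCs (limma adjusted p = 0.592).

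The FGF homologous factors are intracellular relatives that bind sodium channels and do not activate FGF receptors. Fgf11 was at 4.54, 6.996 and 6.12 FPKM in SCPs and 1.39, 1.83 and 0.150 FPKM in RSCs, and passed with a log2 fold change of -1.78 ± 0.39. Fgf12 was at 3.56, 4.20 and 3.07 FPKM in SCPs and 1.94, 0.359 and 0.760 FPKM in RSCs, and passed with -1.26 ± 0.34. Fgf13 was under the filter, at 1.42, 0.767 and 1.90 FPKM in SCPs and listed at 0 in RSCs. Fgf14 did not pass, at 0.49 ± 0.34. Of 4 tested neuronal markers, Stmn2 (-2.16) and Elavl4 (-1.62, listed at 0 in RSCs) were higher in SCPs and Tubb3 and Isl1 did not pass. Named Isl1 was at 8.51, 0 and 9.49 FPKM in SCPs and listed at 0 in RSCs. With unnamed transcripts it was at 14.1, 10.4 and 9.49 FPKM in SCPs and still at 0 in RSCs. The named list summed to 26.8 to 49.6 FPKM in SCPs and 17.7 to 24.1 FPKM in RSCs. The part of the neuronal markers in the differences of Fgf11 and Fgf12 was not tested. Under median-of-ratios scaling Fgf12 was -1.12 and no longer passed. The call of Fgf11 was lost without SCP 2 or without SCP 3 (limma adjusted p = 0.0395 to 0.0438) and that of Fgf12 without any 1 sample other than RSC 1 (limma adjusted p = 0.0469 to 0.0721). Calls rest on the unadjusted p, and with all samples the limma adjusted p was 0.0123 for Fgf11 and 0.0246 for Fgf12.

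Of 6 tested genes among the other receptors and co-receptors, 3 passed (50%, against 40.5% of all tested genes). Fgfr4, the fourth receptor tyrosine kinase of the family, was at 2.102, 2.23 and 3.63 FPKM in SCPs and listed at 0 in RSC 1 and at 0.0644 and 0.205 FPKM in RSC 2 and RSC 3, with a log2 fold change of -1.73 ± 0.26 (limma adjusted p = 0.00292). Flrt2 and Flrt3 are membrane proteins that bind FGF receptors. Flrt2 fell from 11.5, 14.96 and 15.5 FPKM in SCPs to 0.535, 1.01 and 0.754 FPKM in RSCs, over 4-fold, with a log2 fold change of -3.08 ± 0.21. Flrt3 went the other way, from 26.9, 25.2 and 20.5 FPKM in SCPs to 58.4, 53.7 and 45.8 FPKM in RSCs, with 1.09 ± 0.15.

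Of 20 signal transducers, all tested, 4 passed, 2 in each direction, which was 20% against 40.5% of all genes. Mapk3, which encodes the MAP kinase ERK1, rose from 110, 123 and 111 FPKM in SCPs to 341, 315 and 368 FPKM in RSCs, a log2 fold change of 1.56 ± 0.09. Plcg1, the phospholipase C gamma that docks on the receptor, fell from 79.8, 61.6 and 66.7 FPKM to 18.0, 14.5 and 21.9 FPKM, a log2 fold change of -1.89 ± 0.18. The docking protein gene Gab1 passed with 0.60 ± 0.14 and the ubiquitin ligase gene Cbl with -0.62 ± 0.16, which became -0.43 and no longer passed under median-of-ratios scaling. The call of Gab1 was lost without any 1 of the 6 samples (limma adjusted p = 0.0293 to 0.0388), and that of Cbl without SCP 1, SCP 2, RSC 1 or RSC 2 (limma adjusted p = 0.0599 to 0.0627). Both were called on the unadjusted p, and with all samples the limma adjusted p was 0.0145 for Gab1 and 0.0201 for Cbl.

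Of 8 tested feedback inhibitors, 2 passed (25%, against 40.5% of all tested genes). Spry2, a Sprouty gene, was at 26.6, 25.8 and 34.0 FPKM in SCPs and at 50.7, 47.9 and 42.9 FPKM in RSCs, a log2 fold change of 0.70 ± 0.14 (limma adjusted p = 0.00807). Spred3 was at 21.4, 19.7 and 18.5 FPKM in SCPs and at 13.4, 12.6 and 8.03 FPKM in RSCs, a change of -0.79 ± 0.21, which became -0.59 and no longer passed under median-of-ratios scaling. With unnamed transcripts added, Spred3 was at 17.4 FPKM in RSC 3, and the change was -0.44 and did not pass. With the highest transcript per gene the Spred3 change was -0.25 and did not pass either. The call of Spry2 was lost without RSC 1 or RSC 2 (limma adjusted p = 0.0307) and that of Spred3 without SCP 1, SCP 2, SCP 3 or RSC 2 (limma adjusted p = 0.0417 to 0.0702). Spred3 was called on the unadjusted p, and with all samples its limma adjusted p was 0.0228. With unnamed transcripts added, 6 of 10 tested inhibitors passed, 3 in each direction, in a fit in which 57.4% of all genes passed.

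Of the 3 PEA3 factors, Etv5 passed as higher in SCPs, Etv1 passed as higher in RSCs and Etv4 did not pass. Etv5 was at 21.5, 18.4 and 18.3 FPKM in SCPs and at 9.50, 13.4 and 8.09 FPKM in RSCs, a log2 fold change of -0.87 ± 0.20, which became -0.67 and no longer passed under median-of-ratios scaling. Etv1 was at 1.57, 1.16 and 1.13 FPKM in SCPs and at 2.67, 4.88 and 6.04 FPKM in RSCs, with 1.23 ± 0.30. The log2 fold change of Etv4 was 0.86 ± 0.82, and it was listed at 0 in SCP 3. The sign of Etv4 turned to -0.06 without SCP 3 and to -0.28 with unnamed transcripts added. The call of Etv5 was lost without SCP 1, SCP 2, SCP 3, RSC 1 or RSC 3 (limma adjusted p = 0.0344 to 0.0477), and that of Etv1 without any 1 sample other than RSC 1 (limma adjusted p = 0.0373 to 0.0571). Both calls were on the unadjusted p, and with all samples the limma adjusted p was 0.0139 for Etv5 and 0.0176 for Etv1.

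The genes that build and edit heparan sulfate held several of the largest differences in these lists. Of 9 tested core protein genes, 6 passed, 3 in each direction, against 40.5% of all tested genes. Sdc4, a syndecan, rose from 4.35, 7.37 and 4.11 FPKM in SCPs to 64.6, 61.7 and 63.1 FPKM in RSCs, a log2 fold change of 3.39 ± 0.21. Gpc1, a glypican, rose from 97.5, 99.4 and 101 FPKM to 449, 370 and 392 FPKM, with 2.01 ± 0.09. Sdc2 rose too, with 1.39 ± 0.25. Agrn, which encodes agrin, fell from 97.0, 101 and 125 FPKM to 32.1, 21.0 and 36.6 FPKM, with -1.85 ± 0.22. Sdc1 fell with -1.60 ± 0.24 and Sdc3 with -0.64 ± 0.08.

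Of 15 tested heparan sulfate enzymes, 7 passed (46.7%, against 40.5% of all tested genes), 4 higher in RSCs and 3 higher in SCPs. Those higher in SCPs were over 4-fold, but Sulf2 was -1.81 with unnamed transcripts added and -1.97 without RSC 3, and Hs6st2 was -1.98 with the highest transcript per gene. Sulf1 and Sulf2 are the extracellular enzymes that remove 6-O-sulfate from heparan sulfate. Sulf1 was at 11.2, 47.1 and 32.5 FPKM in SCPs and at 2.72, 2.95 and 3.27 FPKM in RSCs, a log2 fold change of -2.76 ± 0.50. Sulf2 was at 211, 126 and 175 FPKM in SCPs and at 46.5, 37.9 and 14.4 FPKM in RSCs, with -2.46 ± 0.45. The 6-O-sulfotransferase genes moved apart, Hs6st2 from 11.3, 11.3 and 13.1 FPKM in SCPs to 2.09, 1.63 and 1.46 FPKM in RSCs (-2.24 ± 0.18) and Hs6st1 from 9.85, 12.2 and 12.2 FPKM to 34.8, 46.0 and 36.7 FPKM (1.69 ± 0.15). Glce, the epimerase, rose with 1.499 ± 0.17, and the heparanase gene Hpse rose with 0.93 ± 0.21, a call lost without RSC 3 (limma adjusted p = 0.0316). Hpse was called on the unadjusted p, and with all samples its limma adjusted p was 0.0141. The leukocyte genes and 5 of the 8 fibroblast and mesenchyme genes were also higher in RSCs, and their part in these differences was not tested.

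Of the regulators of FGF receptor splicing, Ptbp1, which acts on the exons that set ligand choice, fell from 306, 273 and 246 FPKM in SCPs to 111, 90.03 and 88.1 FPKM in RSCs, a log2 fold change of -1.51 ± 0.13. Rbfox2 was at 37.7, 19.9 and 0 FPKM in SCPs and at 5.003, 0 and 4.04 FPKM in RSCs, and did not pass. With unnamed transcripts it was at 67.6, 64.1 and 67.9 FPKM in SCPs and at 14.7, 13.3 and 15.03 FPKM in RSCs, and passed with -2.14 ± 0.09 (limma adjusted p = 5.01e-06, the lowest of 16 settings that ran up to 0.806). Esrp1 and Esrp2, the epithelial splicing factors, were under the filter, Esrp1 at 0.190 to 0.316 FPKM in SCPs and listed at 0 in RSCs, Esrp2 listed at 0 in SCPs and at 0, 1.21 and 1.07 FPKM in RSCs.

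**Figure D4:**
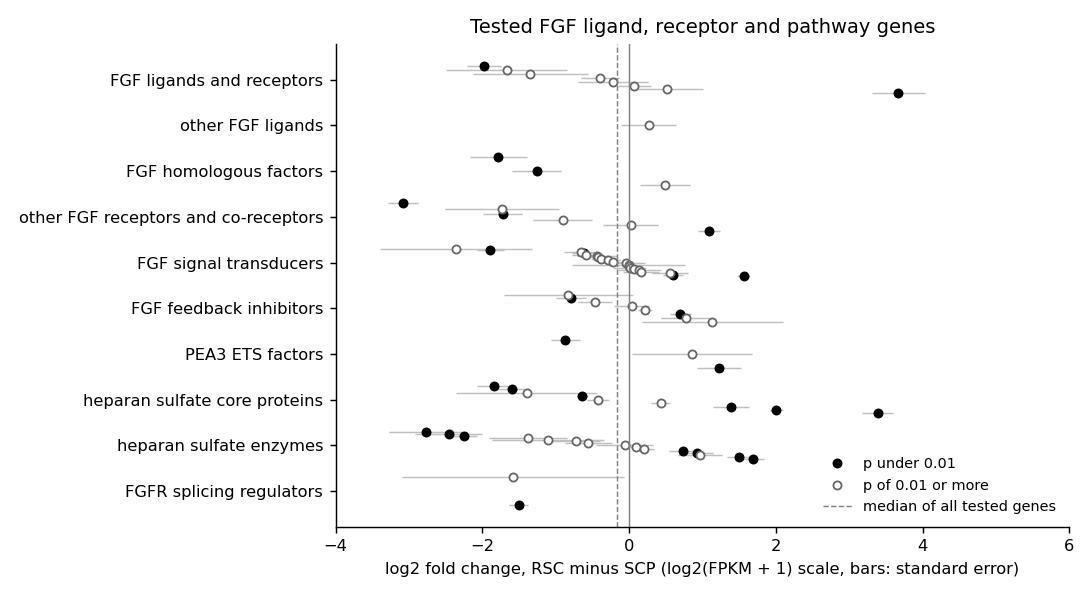
Log2 fold change (RSC minus SCP, log2(FPKM + 1) scale) of each tested gene in the FGF ligand and receptor list and in 9 pathway lists, with bars for the standard error, filled where p was under 0.01. Fgf5 at 3.67 and Sdc4 at 3.39 lie farthest to the right, and Flrt2 at -3.08 farthest to the left.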

How the data were processed

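RNA from 3 SCP and 3 RSC preparations was sequenced by the authors as stranded paired-end mRNA libraries. The submitters' processing notes name FastQC 0.11.2, TopHat2 2.1.0, Cufflinks 2.2.1 and the rn6 build. The authors deposited 1 Cufflinks table for each sample, which gives FPKM and coverage (a signal of read depth) per transcript. Relative to the deepest sample, coverage per FPKM was 0.88 to 1.00 in SCPs and 0.79 to 0.84 in RSCs. Absolute depth is unknown, so precision rests on the 3 samples per group.

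FPKM of named transcripts were summed by gene symbol. Transcripts with gene names turned into dates, 77 per sample, were left out. Positions were converted to count from 1. How Cufflinks divided reads among overlapping transcripts is not stated. An exact 0 can be signal placed in an unnamed transcript.

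Genes that averaged 1 FPKM or more were compared with limma 3.58.1 (R 4.3.3, variance trend, two-sided) on log2(FPKM + 1), with Benjamini-Hochberg values over all 13003 tested genes and no replicate block. Tables were handled with pandas 2.3.3. The script was tested on simulated data. The tables hold no counts, so no count test was run. The members and lists were chosen with earlier results of these data known. All 10 members were named, and from each list up to 3 genes per direction with the largest change past the threshold, every gene of lists of 4 or fewer, and markers. Also tried were quantile normalization, scaling by median of ratios, a pseudocount of 0.1, no filter on low values, a minimum average of 5 FPKM, a fit with no trend, the replicate block, adjusted p, the highest transcript, added unnamed transcripts and each sample left out. Promoters were taken from a RefSeq table (GRCr8), in which 9 of the 10 members were found. Of the genes on the marker lists, 1 is not reported here.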

Additional observations from a re-analysis of the deposited data

Results flagged for a closer look

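These values come from unnamed transcripts, outside the sums that were compared, in samples where the named gene was listed at 0. The lower Cufflinks confidence bound of each was above 0.

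Of the ligands, Fgf10 had 2.49 FPKM in unnamed transcripts in SCP 1 and Fgf18 had 3.35 FPKM in SCP 2. Of the feedback inhibitors, the values of Spry1, Dusp4, Il17rd and Spred2 were chosen after they were seen. Spry1, a Sprouty gene, had 21.9, 22.4 and 31.0 FPKM in SCP 1 to 3 and 41.3 and 49.7 FPKM in RSC 1 and RSC 2. Dusp4, a phosphatase of MAP kinases, had 13.9, 14.8 and 17.1 FPKM in SCPs and 6.89, 6.67 and 5.89 FPKM in RSCs, and named Dusp4 was listed at 0 in all 6 samples. Il17rd had 8.31 and 6.82 FPKM in SCP 1 and SCP 2 and 1.66 and 1.49 FPKM in RSC 2 and RSC 3. Spred2 had 9.57 FPKM in RSC 2. The PEA3 factor Etv4 had 15.7 FPKM in SCP 3. The splicing regulator Rbfox2 had 67.9 FPKM in SCP 3 and 13.3 FPKM in RSC 2.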

How the results depend on the processing

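Fgf5 and Fgf9 kept their direction and their call in every alternative in which they were tested, and Fgf9 was under the filter at a mean of at least 5 FPKM, which left 1 FGF gene called. With unnamed transcripts added, 4 FGF genes were called, 3 of them over 4-fold, 8040 of all genes passed in place of 5268, and 41 pathway genes passed in place of 27. FGF genes over 4-fold numbered 2 with a pseudocount of 0.1 and 2 with quantile normalization, Fgf9 being the added gene. Without the filter on low values 3 FGF genes were called, Fgf1 being the added gene, and 6195 of all 20494 genes passed. Leaving out each sample in turn gave 2 to 3 FGF genes called, 1 to 2 over 4-fold, 4460 to 4874 of all genes and 19 to 23 pathway genes. Directions turned for genes that did not pass. Fgfr2 was 0.0124 with the highest transcript, and Fgfr1 was -0.0801 and Etv4 -0.282 with unnamed transcripts added. Without 1 sample, Fgfr2 ranged from -0.562 to 0.204, Fgfr1 from -0.135 to 0.254 and Etv4 from -0.0634 to 1.49. Of 26 named pathway genes that passed, 9 lost the call in at least 1 alternative (Cbl, Etv1, Etv5, Fgf11, Fgf12, Gab1, Hpse, Spred3 and Spry2). The cause was not tested, apart from the filter.

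Samples with the same replicate number in the labels showed little shared deviation, with correlations of 0.044, -0.0049 and 0.026 for numbers 1, 2 and 3. SCP 1 and SCP 3 correlated best with the RSC sample of their own number, and SCP 2 with RSC 1 (0.0051). Values this small cannot tell whether the numbers pair the samples. With the replicate number as a block, 4275 of all genes passed, 1482 of them over 4-fold, with 2 FGF genes called, 1 over 4-fold, and 18 pathway genes.

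Depth is known only relative to other samples, so no limit of detection can be given for a gene listed at 0.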

Other observations

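With unnamed transcripts added, further pathway genes were apart between the groups. They were chosen after their values were seen, and are given as values. Fgf22, a ligand of the Fgf7 subfamily, was listed at 0 in all SCP samples and was at 5.39, 3.24 and 4.66 FPKM in RSCs, all in unnamed transcripts. Flrt1, a membrane protein that binds FGF receptors, was at 14.2, 14.5 and 16.7 FPKM in SCPs and at 0.0795, 0.0724 and 0 FPKM in RSCs. The glypican gene Gpc2 was at 34.6, 24.5 and 24.6 FPKM in SCPs and at 2.42, 1.26 and 0.502 FPKM in RSCs. The heparan sulfate sulfotransferase gene Ndst3 was at 8.18, 7.90 and 8.24 FPKM in SCPs and at 0, 0.0738 and 0 FPKM in RSCs.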
